A study of Mus musculus with 6 samples.

Results

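The mRNA of one pair of mouse embryonic stem cell (ESC) libraries was compared, OE-D7 with Con-D7. OE-D7 came from ESCs that overexpressed *Dppa3* and Con-D7 from control (Con) ESCs labelled wild type. The comparison covered 2 of the 6 libraries of the series, and the other 4 were Con-1, Con-2, OE-1 and OE-2. In the study's methods, *Dppa3* was driven by the CAG promoter of the vector pLch3.7, controls received the empty vector, and *Dppa3* OE ESCs were either stable lines grown from picked colonies or transient cells kept under puromycin for a short time. The sources used here do not say which of these, or how many colonies, gave each library. All 6 libraries were labelled mESC, and the ESCs were grown in medium with fetal bovine serum and LIF. The label D7 is explained neither in the sample records nor in the study's text, so no time or treatment was read into it. The strain given for Con-D7 was 129S4/SvPas and that for OE-D7 was 129S7/SvPas. The strain label differed between all 6 libraries and its number rose in sample order, so the labels may be a spreadsheet fill. The study's methods name ESC lines and no strain. With the labels taken as given, strain and genotype cannot be told apart in the D7 pair.

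Genes were compared where FPKM (fragments corrected for gene length and for sequencing depth) was at least 1 in either D7 library, which held for 13057 of the 19489 genes of the table. The measure was the log2 ratio of FPKM plus 0.5, OE-D7 to Con-D7. With 1 library per condition there was no test of this ratio. For each gene the ratios OE-1/Con-1 (pair 1) and OE-2/Con-2 (pair 2), which share no library with the D7 pair, were read beside it. A gene was said to go the same way when both of those ratios had its sign, and to be measured in a pair when at least 1 library of that pair reached 1 FPKM. Going the same way is agreement of sign only.

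Dppa3 (Stella) is a maternal protein of the oocyte and early embryo that hinders the maintenance of DNA methylation by Uhrf1 and Dnmt1. ESCs in serum and LIF are a mixture of naive cells and cells that drift toward the primed epiblast, and a few cells leave pluripotency for endoderm, mesoderm or trophoblast-like states. Those cells can be recognised by lineage transcription factors, by keratins and by genes of the extracellular matrix, the network of collagens, laminins and glycoproteins that cells secrete. Imprinted genes are expressed from the maternal or the paternal copy alone, under DNA methylation inherited from the gametes. Many of them act on fetal and placental growth.

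In OE-D7, 163 of the 13057 genes were at least 2-fold higher than in Con-D7 (1.25%) and 49 were at least 2-fold lower (0.375%). At 1.5-fold the numbers were 733 higher (5.61%) and 223 lower (1.71%), and the ratio lay above 0 in 55.3% of genes, with a median of 0.03. The 2-fold shares were larger than in pair 1, with 90 of 12128 genes higher (0.742%) and 15 lower (0.124%), and than in pair 2, with 106 of 12768 higher (0.83%) and 18 lower (0.141%). They were smaller than between libraries of a single genotype. Con-2 against Con-1 had 8.28% of genes 2-fold higher and 2.43% lower, and OE-2 against OE-1 had 3.79% higher and 0.589% lower. Estimated reads were 17790699 in Con-D7 and 17408954 in OE-D7, so depth was near equal.

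Of the 163 genes higher in OE-D7, 78 stayed below 1 FPKM in each of the other 4 libraries and 62 were measured in both other pairs. Of all 7217 genes with a D7 ratio above 0, 532 stayed below 1 FPKM there and 6296 were measured in both. Of the 49 lower genes 12 stayed below 1 FPKM there, against 120 of all 5800 with a D7 ratio below 0. Of the 62, 29 were higher in OE in both pairs (46.8%), 24 in 1 of them and 9 in neither. Over all genes with a D7 ratio above 0 and measured in both pairs, 40.6% went the same way in both. Of the 49 genes lower in OE-D7, 26 were measured in both pairs and 8 of these were lower in both (30.8%), against 22.3% over all genes with a D7 ratio below 0. At 1.5-fold or more in both other pairs, 10 of the 62 higher genes went the same way (16.1%) and 0 of the 26 lower genes did, against 1.25% of all measured genes with a D7 ratio above 0 and 0.0547% of those below 0. The share that agreed in sign was thus near that of all genes, while the share that agreed at 1.5-fold was above it for the higher genes. The median log2 ratio of the 163 genes was 1.24 in the D7 pair, 0.06 in pair 1 and 0.00 in pair 2.

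**Figure D1:**
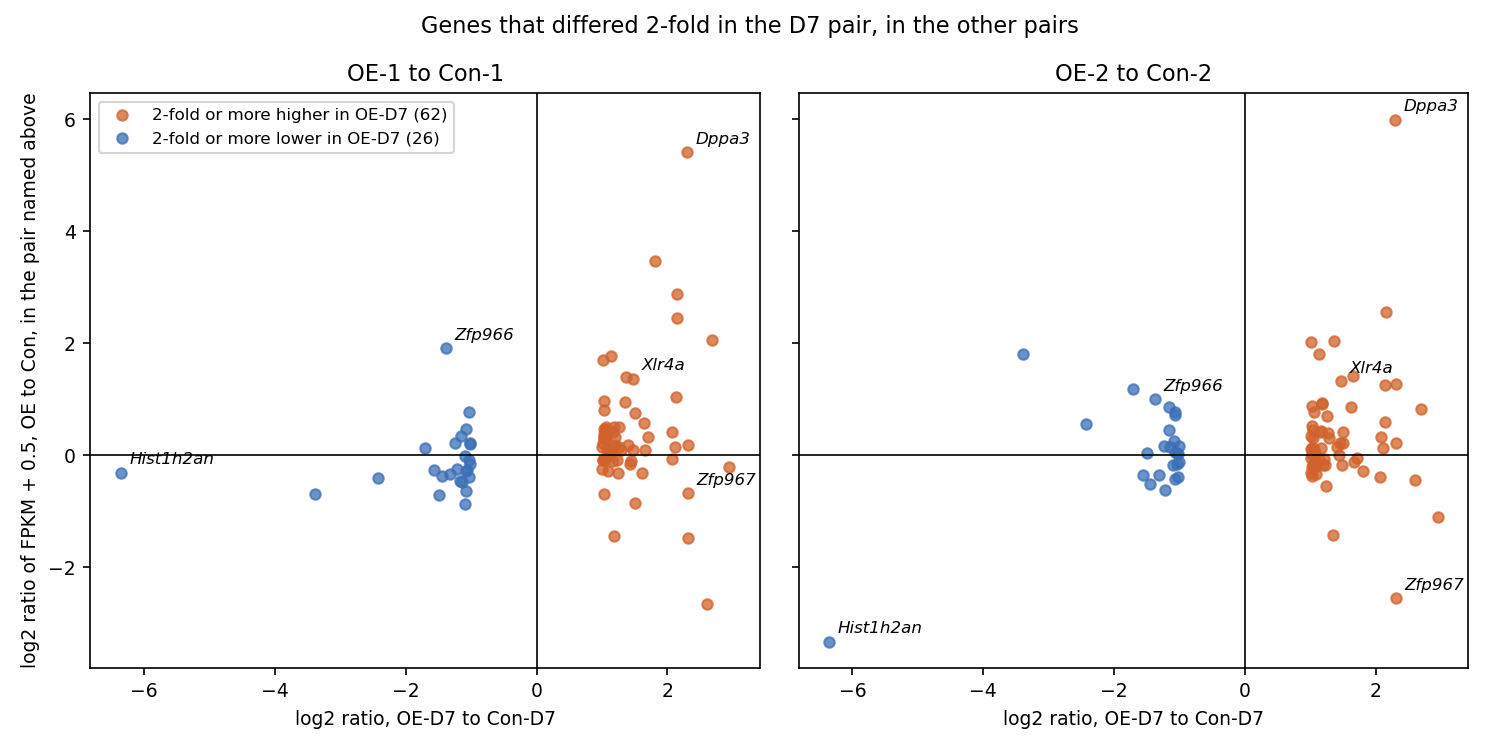
Log2 ratio of FPKM plus 0.5 in pair 1 (left) and pair 2 (right), on the vertical axis, against the ratio in the D7 pair, on the horizontal axis, for the 62 genes higher and the 26 genes lower by 2-fold in OE-D7 that were measured in both other pairs. Each point is a gene, most points lie near 0 on the vertical axis, and *Dppa3* lies above 5 in both panels.

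Pairs 1 and 2 were also tested. In edgeR's quasi-likelihood test over these 4 libraries, 0 of 13494 genes were higher in OE (0%) and 0 were lower (0%) at an adjusted p under 0.05, with 62 genes at an unadjusted p under 0.05. DESeq2 called 2 higher and 0 lower. Libraries of the same number varied together, and with the replicate number as a block edgeR called 103 genes higher (0.763%) and 16 lower (0.119%). That blocked fit over 4 libraries has 1 residual degree of freedom, so its small p-values rest on little replication. The blocked fit called 9 of the 163 genes higher in OE-D7 in the same direction and 2 in the other, and 1 of the 49 lower genes in the same direction and 1 in the other. A second test asked whether the OE effect differed between the D7 pair and pairs 1 and 2. It called 0 of 13809 genes above 0 (0%) and 0 below (0%), with 69 genes at an unadjusted p under 0.05, while DESeq2 called 1 each way. With the block it called 129 above 0 (0.934%) and 70 below (0.507%). Of the 163 genes, 147 could be tested and 45 had an OE effect further above 0 in the D7 pair, and of the 49 lower genes 44 could be tested and 11 had one further below 0. This second test takes its spread from pairs 1 and 2 with 1 residual degree of freedom, lends it to the single D7 pair, and uses the D7 values that picked the genes, so its calls are no support for a difference in those genes. In the paragraphs on single genes the size of the difference is given for *Dppa3*, *Krt8* and *Krt18*, as a description only. *Dppa3* was named as the overexpressed gene but is also among the largest increases, and the keratins were named for their abundance in the D7 libraries. The flagged results list this difference for 34 named genes, also as a description only.

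The overexpressed gene itself was higher in OE in each pair. FPKM of *Dppa3* was 26.22 in Con-D7 and 130.96 in OE-D7, 371 and 1813 estimated reads, a 4.99-fold difference relative to library size with a 95% exact counting interval of 4.46 to 5.6. Such intervals cover counting error only, not the spread between cultures. In the other pairs FPKM of *Dppa3* was 6.09 and 3.89 in Con-1 and Con-2 and 278.79 and 278.82 in OE-1 and OE-2. The D7 pair thus had the highest Con level and the lowest OE level of the 3 pairs. Over pairs 1 and 2 the log2 fold change was 5.76 ± 0.132 (SE; edgeR with the replicate block, adjusted p = 6.35e-15, and adjusted p = 0.43 without the block). In the blocked fit the OE effect in the D7 pair differed from it by -3.46 on the log2 scale, a description only. *Dppa3* went the same way in all 3 pairs. The table does not separate reads of the endogenous gene from those of the transgene.

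**Figure D2:**
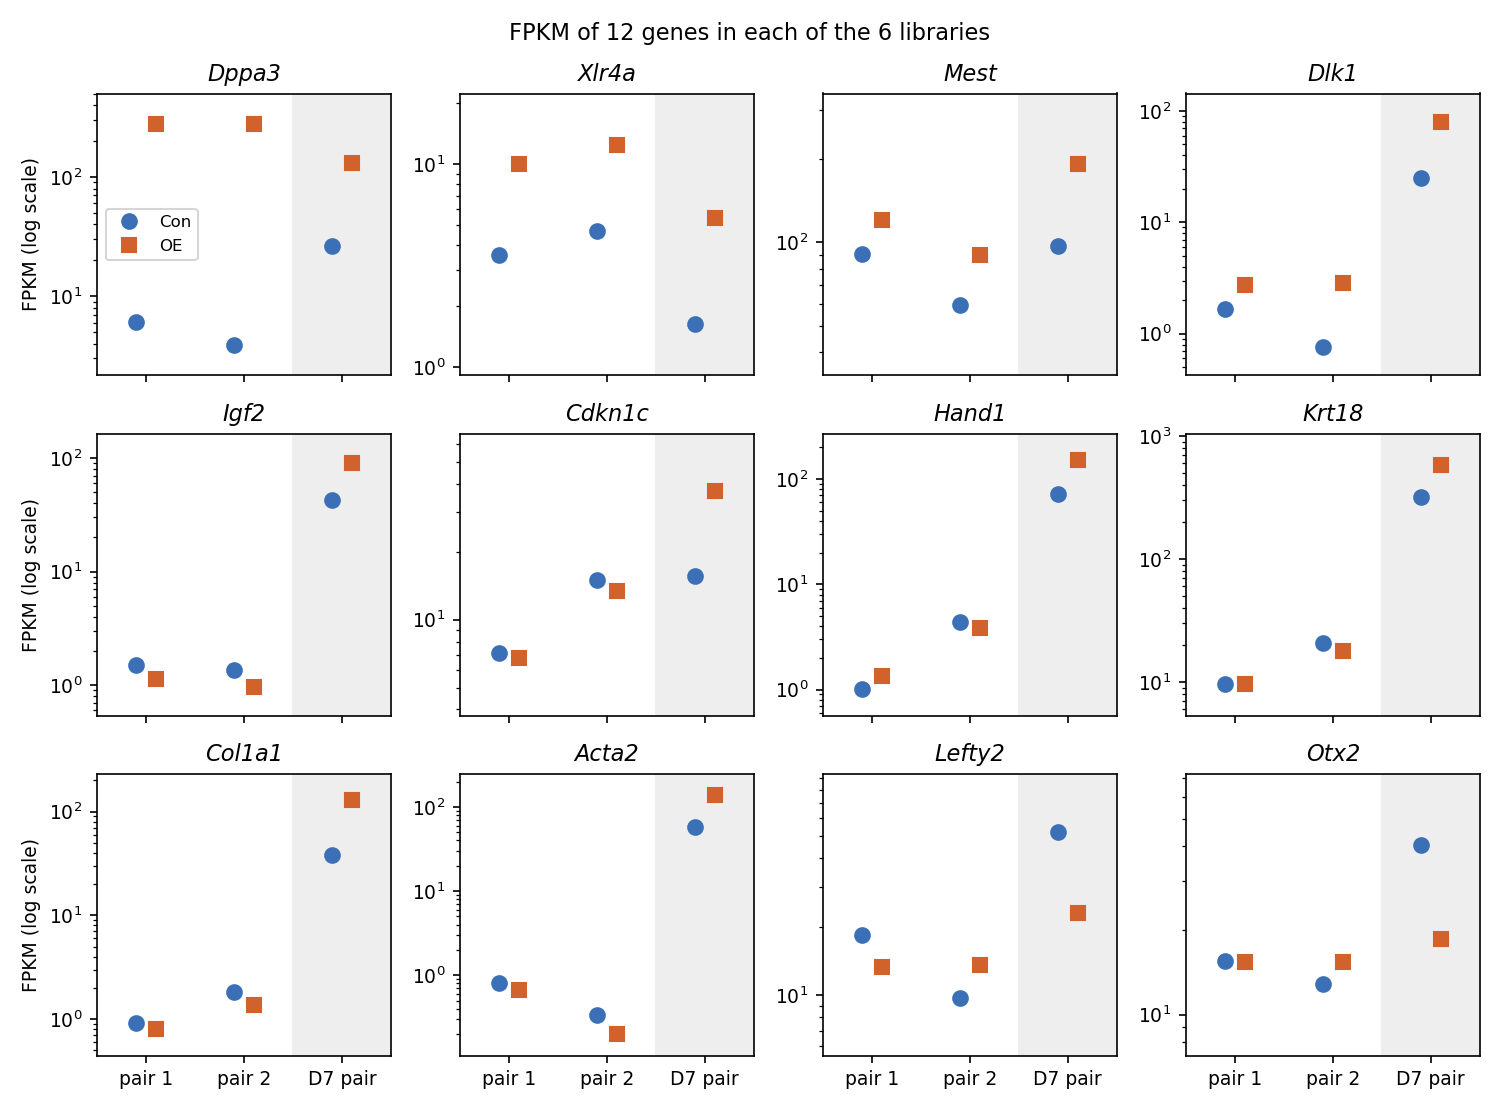
FPKM of 12 genes in each of the 6 libraries, on a log axis whose range differs between panels, with Con as circles, OE as squares and the D7 pair shaded. *Dppa3*, *Xlr4a*, *Mest* and *Dlk1* were higher in OE in all 3 pairs, while *Igf2*, *Cdkn1c*, *Krt18*, *Col1a1* and *Acta2* were higher in OE-D7 without being higher in OE in both other pairs.

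Both D7 libraries expressed the naive pluripotency genes. All 16 naive pluripotency genes of the list reached 1 FPKM, 0 of 16 differed 1.5-fold, and their median log2 ratio was -0.01. Over all genes 5.61% were 1.5-fold higher and 1.71% lower, so 0 of 16 was near the background. FPKM of *Nanog*, a transcription factor of the naive state, was 320.14 in Con-D7 and 327.31 in OE-D7. FPKM of *Dppa5a*, an RNA-binding protein of ESCs, was 2083.11 and 2267.56. *Pou5f1*, the gene of the core factor Oct4, had an FPKM of 383.78 in Con-D7 and 311.64 in OE-D7, both below the range of 575.03 to 682.98 in the other 4 libraries. The summed FPKM of the 12 core pluripotency genes was likewise lower in the D7 pair. It was 1487.78 in Con-D7, 1048.64 in OE-D7 and from 2096.33 to 2493.17 in the other 4 libraries. The Y-linked *Eif2s3y* and *Ddx3y* had D7 log2 ratios of -0.04 each.

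Genes of the formative and primed epiblast were lower in OE-D7. Nodal, a TGF-beta ligand, keeps the epiblast from neural fate and induces its own inhibitors *Lefty1* and *Lefty2*, while FGF ligands drive ESCs out of the naive state. Of 17 formative and primed genes, 3 were 2-fold lower and 9 were 1.5-fold lower (background 0.375% and 1.71%), 0 were 1.5-fold higher, and the median log2 ratio was -0.60, against -0.10 in pair 1 and 0.00 in pair 2. Of the 12 core pluripotency genes, 2 were 2-fold lower, 4 were 1.5-fold lower and 1 lay above 0 (55.3% of all genes), with a median of -0.45.

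FPKM of *Lefty2* was 52.35 in Con-D7 and 23.12 in OE-D7, and 0.442-fold in reads (95% interval 0.41 to 0.476). In the other libraries it was 18.49 and 13.28 in Con-1 and OE-1, and 9.77 and 13.54 in Con-2 and OE-2, so the pairs disagreed in direction. FPKM of *Lefty1* was 15.77 in Con-D7 and 5.27 in OE-D7, with 6.04 and 3.51 in pair 1 and 2.23 and 2.32 in pair 2, lower in OE in 1 of the 2 other pairs. *Otx2*, a transcription factor of the formative epiblast, had an FPKM of 40.32 in Con-D7 and 18.65 in OE-D7, and lay between 12.85 and 15.6 in the other 4 libraries. Con-D7 was the library that stood apart for *Otx2* and *Lefty2*, and OE-D7 was above the other 4 libraries too.

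FPKM of *Fgf5*, a marker of the primed epiblast, was 3.1 in Con-D7 and 0.83 in OE-D7 (138 and 36 reads) and at most 0.11 elsewhere, so pairs 1 and 2 said nothing about it. *Fgf8*, expressed in the primitive streak, had 2.62 and 0.84 FPKM in Con-D7 and OE-D7, at 49 reads or fewer. It was lower in OE in pair 1 (0.45 and 0.12, below 1 FPKM) and in pair 2 (1.18 and 0.66). *Fgf15*, another FGF ligand, went the same way in all 3 pairs. Its FPKM was 17.6 and 7.29 in the D7 pair, 4.7 and 3.91 in pair 1, and 8.48 and 5.38 in pair 2, and it did not pass the blocked test over pairs 1 and 2 (log2 fold change -0.52 ± 0.177, adjusted p = 0.33). *T*, the brachyury gene of early mesoderm, had 1.83 FPKM in Con-D7 and 0.64 in OE-D7 and at most 0.31 in the other libraries. Of the 9 primed genes that were 1.5-fold lower, 7 were measured in both other pairs and 2 of these were lower in both. This was near the background of 23.9% of all 1.5-fold lower genes so measured.

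Mesoderm genes split. Of 15 streak and mesoderm genes, 3 were 2-fold higher (*Foxf1*, *Hand1* and *Pdgfra*) and 1 was 2-fold lower (*T*), with a median of 0.37. Over all genes 1.25% were 2-fold higher and 0.375% were 2-fold lower. *Hand1*, a factor of lateral and extraembryonic mesoderm and of trophoblast giant cells, had an FPKM of 71.59 in Con-D7 and 150.2 in OE-D7, 2.1-fold in reads (95% interval 2 to 2.2). In pair 1 it was 1.02 and 1.35, and in pair 2 it was 4.42 and 3.83. The pairs disagreed, and both D7 libraries were above the other 4. *Foxf1*, a factor of splanchnic mesoderm, had 0.83 and 2.74 FPKM in the D7 pair and at most 0.05 elsewhere. *Pdgfra*, the receptor for PDGF-A found on mesoderm and primitive endoderm, had 1.26 and 3.13 FPKM and at most 0.95 elsewhere.

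Trophectoderm genes were among the lists furthest above 0. Of 22 members, 4 were 2-fold higher and 11 were 1.5-fold higher (background 1.25% and 5.61%), 1 was 1.5-fold lower, and the median was 0.59, against 0.20 in pair 1 and -0.07 in pair 2. *Hand1*, *Krt8*, *Krt18* and *Peg10* are among the members and were also counted in other lists. *Plac1*, an X-linked placental gene, had an FPKM of 6.32 in Con-D7 and 21.2 in OE-D7 and at most 0.37 elsewhere. *Gata2*, a trophoblast transcription factor, had 7.22 and 16.44, while pair 1 gave 0.99 and 0.82 and pair 2 gave 1.62 and 1.22. OE was lower in both, though pair 1 was below 1 FPKM. *Esx1*, an X-linked homeobox gene of the placenta, was higher in OE in each pair, at 18.66 and 39.43 in the D7 pair, 1.82 and 2.8 in pair 1 and 5.03 and 5.5 in pair 2. It did not pass the blocked test over pairs 1 and 2 (log2 fold change 0.32 ± 0.219, adjusted p = 0.80). Of the 8 genes of this list that differed 1.5-fold and were measured in both other pairs, 1 went the same way in both. Over all genes so measured this held for 43.6% of the 1.5-fold higher and 23.9% of the 1.5-fold lower genes.

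The simple epithelial keratins *Krt8* and *Krt18*, partners in 1 filament, are members of this list and were also higher in OE-D7, at high levels. FPKM of *Krt18* was 318.42 in Con-D7 and 579.62 in OE-D7, and from 9.63 to 20.62 in the other 4 libraries. FPKM of *Krt8* was 250.06 and 421.47, and from 11.98 to 17.03 in the others. Both were higher in OE in pair 1 and lower in pair 2. In the blocked edgeR fit the log2 OE effect was higher in the D7 pair by 1 for *Krt18* and by 0.77 for *Krt8*. With 1 D7 library per condition, these differences are a description only. *Cdx2*, the factor that defines the trophectoderm, did not go with them, at 1.49 FPKM in Con-D7 and 1.2 in OE-D7. The keratin and junction list as a whole had a median of 0.03.

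Primitive and extraembryonic endoderm genes had a median of 0.55 over 21 members, with 9 at 1.5-fold higher, 3 of them 2-fold higher, and 0 lower (background 5.61%, 1.25% and 1.71%). The 2-fold members were low, *Fxyd3* at 1 and 4.03 FPKM, *Ttr*, the thyroid hormone carrier of visceral endoderm, at 0.47 and 2.14, and *Pdgfra*. *Fxyd3* went the same way in pairs 1 and 2, at 0 and 0.22 and at 0.11 and 1.13 FPKM, though pair 1 was below 1 FPKM. The collagen IV chains *Col4a1*, at 27.76 and 51.44 FPKM, and *Col4a2*, at 17.69 and 35.25, were among the more abundant members. *Gata4*, a defining factor of this lineage, had 1.74 and 2.18 FPKM. Definitive endoderm and neuroectoderm genes were largely absent from both D7 libraries. Of 13 definitive endoderm genes 9 were below 1 FPKM in both, as were 17 of 23 neuroectoderm genes, and 0 of those measured differed 1.5-fold.

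**Figure D3:**
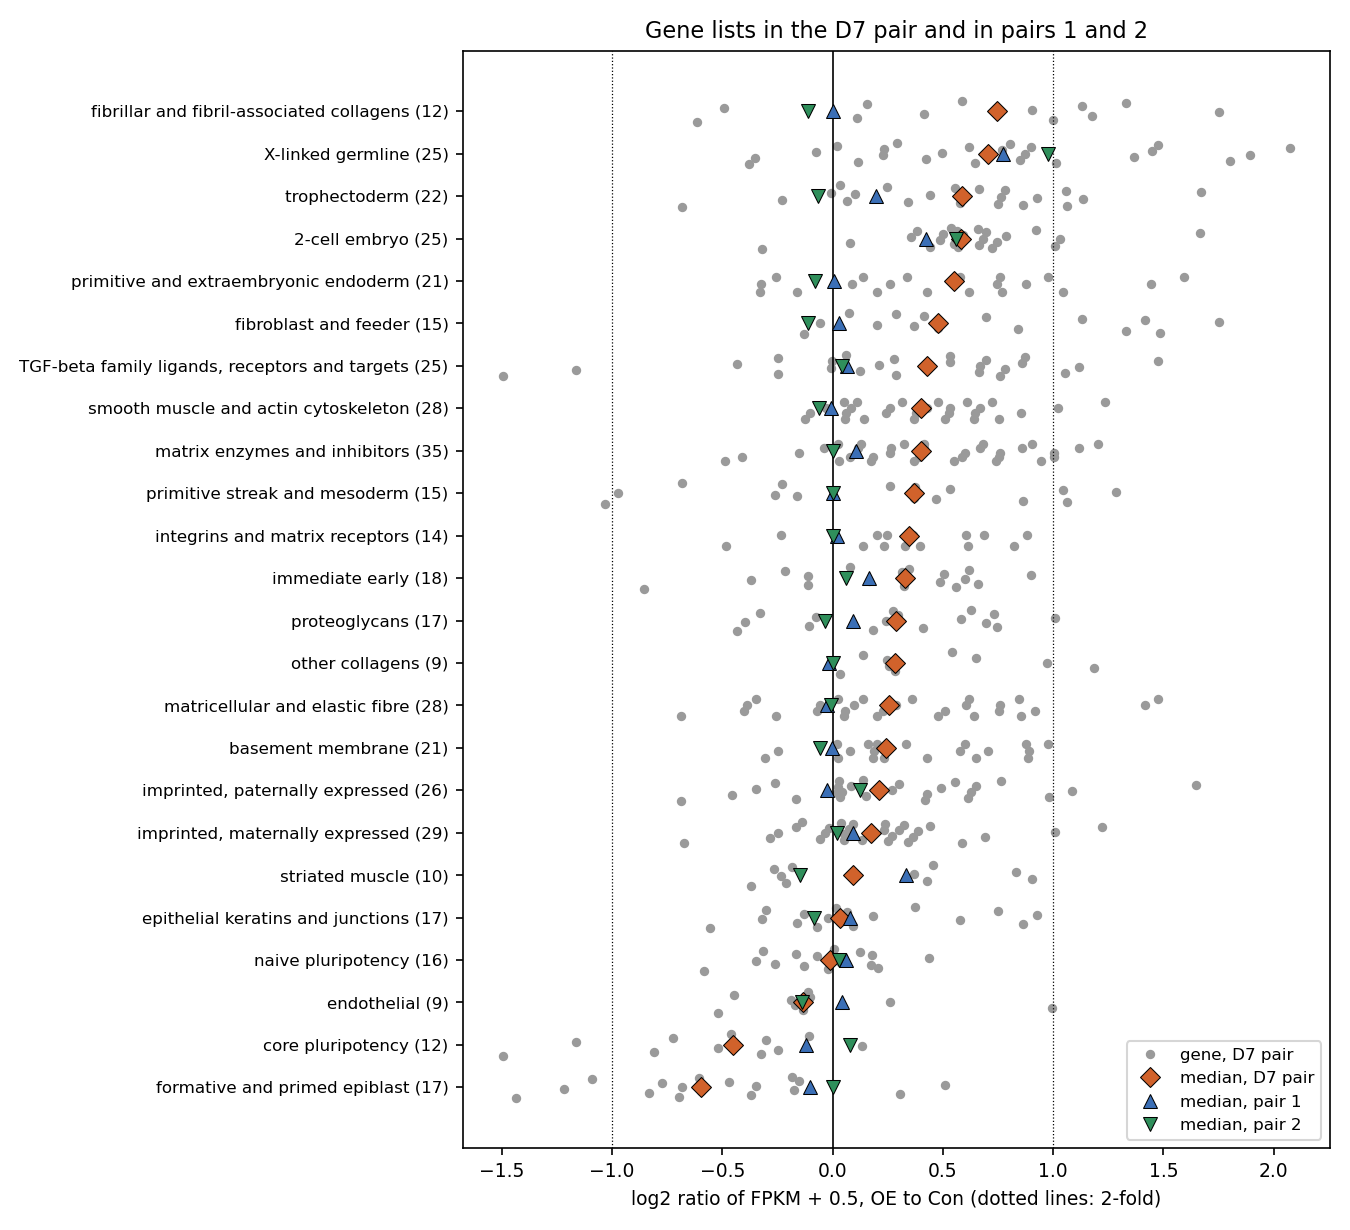
Log2 ratio of FPKM plus 0.5, OE to Con, on the horizontal axis, for the 24 gene lists with at least 9 members measured in the D7 pair, ordered by their D7 median, with the number of members in brackets. Grey points are genes in the D7 pair, diamonds the D7 medians and triangles the medians of pairs 1 and 2. The X-linked germline and 2-cell lists have all 3 medians above 0.4, while the collagen list has medians of 0.75, 0.00 and -0.11.

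Collagens and other matrix genes were higher in OE-D7, and many of them were too low in the other 4 libraries for pairs 1 and 2 to be compared. Fibrillar collagens form the tensile fibres of connective tissue. Of 12 measured fibrillar and fibril-associated collagen genes, 5 were 2-fold higher, 7 were 1.5-fold higher and 1 was 1.5-fold lower, against 1.25%, 5.61% and 1.71% of all genes. The median log2 ratio was 0.75, and 0.00 and -0.11 in pairs 1 and 2, but it rests on members that reached 1 FPKM in a D7 library and was 0.19 over all 17 genes of the list. Of these 12 genes 6 stayed below 1 FPKM in the other 4 libraries, and 1 of the 8 that differed 1.5-fold was measured in both other pairs. Over all genes 532 of 7217 with a D7 ratio above 0 and 120 of 5800 with a ratio below 0 stayed below 1 FPKM there. The summed FPKM of the list was 87.11 in Con-D7, 208.64 in OE-D7 and from 15.95 to 23.27 in Con-1, Con-2, OE-1 and OE-2.

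*Col1a1*, a chain of type I collagen, had an FPKM of 37.98 in Con-D7 and 129.05 in OE-D7, 3.4-fold in reads (95% interval 3.28 to 3.52). In the other libraries it was 0.92 and 0.8 in pair 1 and 1.81 and 1.38 in pair 2. It was a little lower in OE in both, though pair 1 was below 1 FPKM. Its partner chain *Col1a2* had 4.42 and 11.86 FPKM in the D7 pair and at most 0.36 elsewhere. *Col3a1*, of type III collagen, had 3.12 and 7.42 FPKM and at most 0.14 elsewhere. *Col12a1* had 1.71 and 4.5 FPKM and *Col5a2* 1.66 and 3.82, each below 1 FPKM in the other 4 libraries. *Col8a1*, of a short-chain collagen outside that list, had 0.84 and 2.55 FPKM and at most 0.02 elsewhere. For all 6 of these collagens Con-D7 was above the other 4 libraries, and OE-D7 above Con-D7.

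Genes that fold, cross-link or cut collagen followed. Of 35 matrix enzymes and inhibitors, 4 were 2-fold higher, 14 were 1.5-fold higher and 0 were 1.5-fold lower (background 1.25%, 5.61% and 1.71%), with a median of 0.40. *Serpinh1*, the collagen chaperone Hsp47, had an FPKM of 73.65 in Con-D7 and 148.41 in OE-D7, and from 11.22 to 19.07 in the other libraries. *Mmp14*, a membrane-bound matrix protease, had 13.98 and 28.55 FPKM, with 8.2 and 6.86 in pair 1 and 4.18 and 4.56 in pair 2. *Timp2*, an inhibitor that works with *Mmp14*, had 4.88 and 11.89 FPKM, with 1.34 and 1.81 in pair 1 and 1.62 and 1.52 in pair 2. For these 3 genes pairs 1 and 2 pointed opposite ways. *Loxl4*, a lysyl oxidase that cross-links collagen, was higher in OE in all pairs, at 1.76 and 4.4, 0.41 and 0.52, and 0.82 and 1.02 FPKM. Pair 1 was below 1 FPKM for it, and it did not pass the blocked test over pairs 1 and 2 (log2 fold change 0.28 ± 0.252, adjusted p = 0.88).

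Matricellular genes had a median of 0.26 over 28 members, 10 of them 1.5-fold higher and 1 lower (background 5.61% and 1.71%). *Tgfbi*, a TGF-beta-induced adhesion protein, had an FPKM of 7.19 in Con-D7 and 20.92 in OE-D7, and from 5.92 to 6.73 in the other libraries. Its Con-D7 level was near that of the other 4 libraries, and OE-D7 stood above all of them. *Postn*, periostin, had 2.12 and 6.49 FPKM and at most 0.06 elsewhere. *Bgn*, biglycan, a small proteoglycan that binds collagen, had 6.99 and 14.59 FPKM. OE was above Con in pair 1 (0.5 and 0.56, below 1 FPKM) and below it in pair 2 (1.21 and 1.14). Basement membrane genes had 7 of 21 members 1.5-fold higher, 0 of them 2-fold, and 0 lower (background 5.61%, 1.25% and 1.71%). Their most abundant members went the other way in every pair: *Nid2*, nidogen 2, at 111.68 and 94.15 FPKM, and *Col18a1* at 97.54 and 78.87, each also lower in OE in pairs 1 and 2. Integrins and matrix receptors had 5 of 14 members 1.5-fold higher (background 5.61%). FPKM of *Itga3*, a laminin receptor chain, was 41.41 and 63.18, lower in OE in pairs 1 and 2.

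Actin genes of the smooth muscle type were part of the pattern. Of 28 measured members, 2 were 2-fold higher, 9 were 1.5-fold higher, 0 were 1.5-fold lower and 25 lay above 0, with a median of 0.40 against -0.01 and -0.06 in pairs 1 and 2. Over all genes the shares were 1.25%, 5.61%, 1.71% and 55.3%. *Acta2*, smooth muscle actin, had an FPKM of 58.2 in Con-D7 and 137.65 in OE-D7, 2.47-fold in reads (95% interval 2.35 to 2.61). It was at most 0.81 FPKM in the other 4 libraries. OE was below Con in both pairs, but neither pair reached 1 FPKM. *Cryab*, a small heat shock protein, was higher in OE in every pair, at 25.25 and 51.88, 5.66 and 7.24, and 7.45 and 8.2 FPKM. It did not pass the blocked test over pairs 1 and 2 (log2 fold change 0.22 ± 0.196, adjusted p = 0.88). The general actins *Actb* and *Actg1* had D7 log2 ratios of -0.10 and -0.03.

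Ligands, receptors and targets of the TGF-beta family had 18 of 25 members above 0 and a median of 0.43. Of the 25, 10 were 1.5-fold higher and 2 were 1.5-fold lower (background 5.61% and 1.71%). The latter were *Lefty1* and *Lefty2*, which were also counted in the core pluripotency list. The 3 that were 2-fold higher were the target *Tgfbi* and the ligands *Bmp2* and *Tgfb2*. *Bmp2* had 2.44 FPKM in Con-D7 and 5.87 in OE-D7, and *Tgfb2*, a ligand that induces matrix genes, had 5.3 and 11.55. Neither reached 0.2 FPKM in any other library, so neither could be compared with pairs 1 and 2.

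The fibroblast and feeder list overlaps the matrix lists, and the part of fibroblasts in the matrix values was not tested. Of 15 measured genes of the fibroblast and feeder list, 5 were 2-fold higher and 7 were 1.5-fold higher (background 1.25% and 5.61%), with a median of 0.48. Of those 5, *Col1a1*, *Col1a2*, *Col3a1* and *Postn* are also members of the collagen or matricellular lists and were counted there. The summed FPKM of the list was 432.34 in Con-D7, 645.01 in OE-D7 and from 318.37 to 331.69 in Con-1, Con-2, OE-1 and OE-2. The other, *Twist2*, a mesenchymal transcription factor, had 1.11 and 4 FPKM and at most 0.09 elsewhere. Other markers of that list were near 0. FPKM of *Dcn*, decorin, was 0.03 in Con-D7 and 0.21 in OE-D7, that of *Lum*, lumican, was 0 and 0.11, and that of *Prrx1* was 0.27 and 0.93. *Thy1* had a D7 log2 ratio of -0.13. In bulk RNA of this kind, more cells of a type and more RNA per cell cannot be told apart.

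The endothelial list had a median of -0.14 over 9 members with 0 at 2-fold. The blood and macrophage list had 10 of 15 members below 1 FPKM in both D7 libraries. Of the 5 measured, 4 lay above 0, 2 were 1.5-fold higher and 1 was 2-fold higher (background 55.3%, 5.61% and 1.25%), with a median of 0.45. *Ptprc*, the leukocyte marker CD45, was at most 0.06 FPKM in the D7 pair. The globin genes *Hba-a1*, listed at 0 in Con-D7 and 2.97 in OE-D7 (27 reads), and *Hbb-bh1*, at 0 and 1.18 (12 reads), were the members of the haemoglobin family named here. *Hba-a1* was 1.45 and 0.8 FPKM in pair 1 and 0 in both libraries of pair 2, so it did not go the same way. Striated muscle genes had a median of 0.09 over 10 members.

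Imprinted genes leaned to higher values in OE-D7, whichever parental copy is the active one. Of 26 paternally expressed genes measured, 2 were 2-fold higher, 7 were 1.5-fold higher and 1 was 1.5-fold lower, with a median of 0.21. Of 29 maternally expressed genes, 2 were 2-fold higher, 4 were 1.5-fold higher and 1 was 1.5-fold lower, with a median of 0.17. Over all genes the 2-fold share was 1.25% and the 1.5-fold shares were 5.61% higher and 1.71% lower. The long non-coding RNAs of imprinted clusters were not analysed here. Total RNA per gene does not show which parental copy was read.

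Among the paternally expressed genes, *Dlk1* and *Mest* agreed across the 3 pairs. *Dlk1*, a Notch-related growth regulator of mouse chromosome 12, had an FPKM of 25.03 in Con-D7 and 79.43 in OE-D7, 3.2-fold in reads (95% interval 2.94 to 3.49). In pair 1 it was 1.67 and 2.75, and in pair 2 it was 0.76 and 2.85. It missed the threshold in the blocked test over pairs 1 and 2 (log2 fold change 1.25 ± 0.303, adjusted p = 0.0671). *Mest*, of the alpha/beta hydrolase fold family, had 96.8 and 191.84 FPKM in the D7 pair, 90.74 and 120.59 in pair 1 and 59.41 and 90.28 in pair 2. It passed that test (0.45 ± 0.0762, adjusted p = 0.00553; adjusted p = 1 without the block), and was the imprinted gene called there. *Dio3*, the thyroid hormone inactivating enzyme beside *Dlk1* on chromosome 12, was also higher in OE in each pair, though below 1 FPKM in pairs 1 and 2, at 1.78 and 2.99, 0.38 and 0.6, and 0.54 and 0.64 FPKM. *Snurf* was lower in each pair, at 7.12 and 4.24, 7.27 and 4.68, and 4.08 and 3.53. *Snurf* shares a transcript with *Snrpn*, whose D7 log2 ratio was -0.17, so the split of reads between them is uncertain.

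*Igf2* and *Peg3* disagreed with the other pairs. *Igf2*, the fetal growth factor, had an FPKM of 42.79 in Con-D7 and 91.43 in OE-D7, 2.14-fold in reads (95% interval 2.05 to 2.23). It was lower in OE in pair 1 (1.49 and 1.13) and in pair 2 (1.36 and 0.97). *Peg3*, a zinc finger gene, had 62.21 and 97.86 FPKM, and OE was lower in pair 1 (10.43 and 9.31) and pair 2 (12.32 and 10.49). *Peg10*, a retrotransposon-derived gene needed in the placenta, had 366.67 and 623.3 FPKM, level in pair 1 (104.28 and 103.97) and higher in OE in pair 2 (121.67 and 146.2). *Plagl1*, at 8.31 and 13.11 FPKM, was between 5.89 and 6.34 in the other 4 libraries.

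Among the maternally expressed genes, the growth inhibitors *Cdkn1c* and *Phlda2*, neighbours on distal mouse chromosome 7, were 2-fold higher in OE-D7 and lower in OE in both other pairs. FPKM of *Cdkn1c*, the cyclin-dependent kinase inhibitor p57, was 15.61 in Con-D7 and 37.13 in OE-D7, 7.15 and 6.76 in pair 1, and 15.06 and 13.37 in pair 2. FPKM of *Phlda2*, which limits placental growth, was 33.58 and 68.1, 52.86 and 50.06, and 61.84 and 49.48. For *Phlda2*, Con-D7 was the lowest of the 6 libraries. *Gnas*, which holds overlapping transcripts of either parental origin, had 129.52 and 209.42 FPKM, with the other pairs split. *Osbpl5*, at 3.15 and 4.98, was higher in OE in pair 1 (0.62 and 0.79, below 1 FPKM) and not in pair 2 (1.64 and 1.61). *Atp10a*, at 3.33 and 1.9, was lower in OE in each pair, though by little in pair 1 (1.42 and 1.32) and pair 2 (1.12 and 1.07). Among imprinted genes that differed 1.5-fold and were measured in both other pairs, 3 of 7 paternally and 1 of 4 maternally expressed genes went the same way in both, against 43.6% of all 1.5-fold higher and 23.9% of all 1.5-fold lower genes, so these counts lay near the background.

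**Figure D4:**
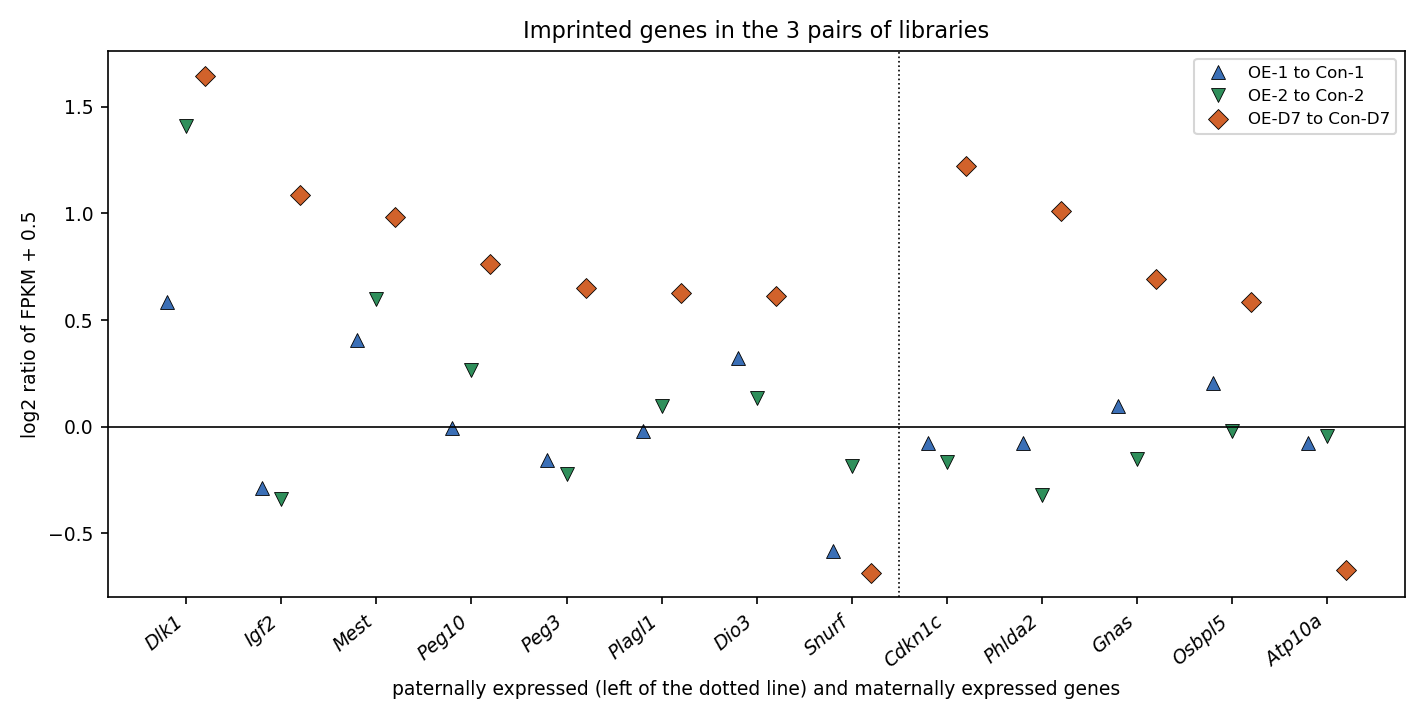
Log2 ratio of FPKM plus 0.5, OE to Con, on the vertical axis, in the D7 pair (diamonds) and in pairs 1 and 2 (triangles), for the 13 imprinted genes that differed 1.5-fold or more in the D7 pair, 8 paternally and 5 maternally expressed. *Dlk1* and *Mest* have 3 positive ratios, while *Igf2*, *Peg3*, *Cdkn1c* and *Phlda2* are positive in the D7 pair and negative in the others.

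In contrast, X-linked germline genes and 2-cell genes were higher in OE in all 3 pairs. The first are germ cell genes of the X chromosome, many of them silenced by promoter DNA methylation in somatic cells, and the second are expressed at genome activation in the 2-cell embryo. Of 25 X-linked germline genes, 7 were 2-fold higher, 15 were 1.5-fold higher and 0 were lower, with medians of 0.70 in the D7 pair, 0.77 in pair 1 and 0.98 in pair 2. Of the 13 that differed 1.5-fold and were measured in both other pairs, 12 went the same way, against 43.6% of all 1.5-fold higher genes. Over pairs 1 and 2, 13 of 23 members tested rose in the blocked fit, which called 0.763% of all genes higher. Of 25 2-cell genes, 3 were 2-fold higher and 12 were 1.5-fold higher, with medians of 0.58, 0.42 and 0.56, 10 of the 12 went the same way in both pairs, and 9 of 24 tested rose. Over all genes 1.25% were 2-fold higher and 5.61% were 1.5-fold higher in the D7 pair. These lists were written with earlier results of these libraries known, and neither fit without the block called any of their members.

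*Xlr4a*, of an X-linked multicopy family first described in lymphocytes, had an FPKM of 1.64 in Con-D7 and 5.45 in OE-D7, 3.59 and 10.04 in pair 1, and 4.67 and 12.41 in pair 2. Over pairs 1 and 2 it rose by 1.4 ± 0.185 (adjusted p = 0.000483). *Luzp4* and *Xlr3c*, chosen after their values were seen, behaved alike. FPKM of *Luzp4*, of a testis-enriched leucine zipper protein, was 1.58 and 4.87 in the D7 pair, 1.59 and 5 in pair 1, and 1.57 and 8.04 in pair 2. FPKM of *Xlr3c* was 5.07 and 10.73, 2.55 and 9.42, and 3.3 and 14.96. For these 3 genes OE was above Con in each pair. Copies of the Xlr family are nearly identical, so reads could be split between them.

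FPKM of *Rhox6*, a homeobox gene of placenta and germ cells, was 23.18 in Con-D7 and 99.33 in OE-D7, 3.32 and 4.58 in pair 1, and 3.25 and 4.23 in pair 2. It went the same way in all pairs, but did not pass the blocked test over pairs 1 and 2 (log2 fold change 0.36 ± 0.263, adjusted p = 0.82). *Rhox9*, its neighbour, had 21.37 and 59.23, with pair 1 at 3.84 and 3.52 and pair 2 at 2.24 and 2.69. *Fthl17a*, a ferritin-like germline gene, had 1.98 and 8.16 FPKM and at most 0.64 elsewhere, and *Rhox4b* had 0.81 and 4.36 and was listed at 0 in the other 4 libraries. Among the 2-cell genes, *Pramef25* had 4.17 and 9.05 FPKM and was higher in OE in both other pairs, while *Usp17ld*, at 6.51 and 13.61, and *Gm4340*, at 13.42 and 43.61, were not.

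Promoters of the genes that differed had few CpG dinucleotides, the sites of DNA methylation. RefSeq promoters (build GRCm38.p6, from 250 bases before to 50 after the start) were found for 10409 of the 13057 genes, with a median of 20 CpG per 300 bases. The median was 9 in the 117 promoters of the 163 genes higher in OE-D7, and 6.5 in the 30 of the 49 lower genes. The genes compared were not matched for expression level, and the part of expression level or of methylation in these medians was not tested. It was 7.5 for genes that went the same way in both other pairs, 10.8 for those that did not and 8 for those below 1 FPKM in a pair. It was 6 in the 7 promoters of the genes 1.5-fold higher in both other pairs. The medians of the lists were 7 for X-linked germline genes, 1 for 2-cell genes, 13 for the collagens, 14 and 21 for paternally and maternally expressed genes, and 20 for smooth muscle genes. The sequence TATAAA, on either strand, was found in 8.95% of all these promoters, 13.7% of those of higher genes and 23.3% of those of lower genes, 7 of 30. The promoters of 2 genes higher in OE in all 3 pairs, *Xlr4a* (chrX:73082458-73082757, minus strand, 8 CpG) and *Luzp4* (chrX:148882326-148882625, plus strand, 6 CpG), are shown beside those of 2 genes that were 2-fold higher in OE-D7 and below 1 FPKM in the other 4 libraries, *Col1a2* (chr6:4505368-4505667, plus strand, 13 CpG) and *Acta2* (chr19:34255324-34255623, minus strand, 6 CpG), 5′ to 3′ with each CpG in capitals. The *Luzp4* promoter is that of a start inside the span given for the gene (chrX:148857694-148924139).
Xlr4a promoter: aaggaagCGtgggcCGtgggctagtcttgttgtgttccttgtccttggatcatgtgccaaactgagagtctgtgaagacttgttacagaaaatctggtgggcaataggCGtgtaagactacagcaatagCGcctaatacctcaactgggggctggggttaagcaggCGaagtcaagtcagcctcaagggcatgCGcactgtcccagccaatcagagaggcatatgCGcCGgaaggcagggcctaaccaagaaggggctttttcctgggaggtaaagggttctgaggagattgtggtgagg
Luzp4 promoter: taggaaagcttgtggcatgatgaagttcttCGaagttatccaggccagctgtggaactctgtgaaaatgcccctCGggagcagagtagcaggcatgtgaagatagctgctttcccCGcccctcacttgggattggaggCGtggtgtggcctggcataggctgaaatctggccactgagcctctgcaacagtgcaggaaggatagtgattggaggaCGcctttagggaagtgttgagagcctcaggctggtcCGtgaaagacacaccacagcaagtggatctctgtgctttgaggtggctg
Col1a2 promoter: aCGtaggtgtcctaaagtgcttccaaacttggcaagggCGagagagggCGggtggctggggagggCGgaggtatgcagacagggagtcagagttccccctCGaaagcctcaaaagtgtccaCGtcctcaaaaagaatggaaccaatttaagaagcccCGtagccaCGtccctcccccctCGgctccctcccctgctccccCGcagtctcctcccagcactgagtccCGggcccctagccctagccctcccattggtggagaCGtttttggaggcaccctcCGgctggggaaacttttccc
Acta2 promoter: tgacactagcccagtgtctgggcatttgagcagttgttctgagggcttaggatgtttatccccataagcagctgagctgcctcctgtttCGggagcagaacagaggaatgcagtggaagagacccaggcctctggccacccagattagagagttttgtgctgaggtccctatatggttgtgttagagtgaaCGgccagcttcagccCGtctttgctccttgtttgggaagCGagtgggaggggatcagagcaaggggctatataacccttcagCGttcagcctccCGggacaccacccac

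The largest D7 ratios lay in multicopy families and at low reads. The 10 largest increases among genes with a proper symbol were *Rhox4a*, *Mup9*, *Hba-a1*, *Ott*, *Hist1h2af*, *Zfp967*, *Dppa3*, *Hist1h2br*, *Rhox6* and *Fxyd2*, and in 6 of them Con-D7 held 0 estimated reads. *Mup9*, of the major urinary proteins, was listed at 0 in Con-D7 and at 3.9 FPKM in OE-D7 (58 reads), and at 0 in all other libraries. *Ott*, an X-linked gene transcribed in ovary and testis, was 0 and 2.72 FPKM (96 reads), 0 and 1.59 in pair 1, and 4.49 and 8.39 in pair 2, the same way in each. *Rhox4a* was 0 and 4.37 FPKM, with 0 in Con-1 and Con-2 and 0.91 and 0.8 in OE-1 and OE-2. *Fxyd2*, a regulator of the sodium pump, was 3.49 and 16.18 FPKM (33 and 153 reads), and lower in OE in pairs 1 and 2.

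The 10 largest decreases were *Hist1h2an*, *Duxbl3*, *Hist1h3e*, *Hist1h2ad*, *Lefty1*, *Fgf5*, *Zfp966*, *Lst1*, *Fgf8* and *Fgf15*. *Hist1h2an*, a replication-dependent histone gene, was 40.36 FPKM in Con-D7 (300 reads) and 0 in OE-D7, 4.12 and 3.22 in pair 1, and 4.52 and 0 in pair 2. The histone gene *Hist1h2af* went the other way, from 0 to 2.53 FPKM, as did *Hist1h2br*, from 0.01 to 1.74. Genes of this cluster are near identical in sequence, and reads may have been assigned to the wrong copy. The zinc finger genes *Zfp966* and *Zfp967*, near each other on mouse chromosome 2, were opposite to each other and to the other pairs. *Zfp966* was 8.49 and 2.95 FPKM in the D7 pair, 1.83 and 8.27 in pair 1, and 4.05 and 8.6 in pair 2. *Zfp967* was 0.41 and 4.03, 11.16 and 6.78, and 2.85 and 0.07. Both passed the blocked test over pairs 1 and 2 in the direction opposite to that of the D7 pair (adjusted p = 0.0025 and 0.00317), and neither passed without the block. Other genes of that part of chromosome 2 also went both ways in the D7 pair. *Gm14393* (2.18 and 0 FPKM) and *LOC102639653* (2.52 and 0.72) were lower in OE-D7, while *LOC102633156* (0 and 1.53) and *Gm14308* (0.22 and 5.06) were higher. How reads were assigned between these genes was not tested.

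Con-D7 differed from the other controls for many of these genes. Of the 163 genes higher in OE-D7, Con-D7 was above both Con-1 and Con-2 in 120, and of the 49 lower genes in 34. Over all genes this held for 3131 of 7217 with a D7 ratio above 0 and for 1335 of 5800 with a ratio below 0. The part of this gap between the controls in the OE-D7 to Con-D7 ratios was not tested.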

How the data were processed

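The authors sequenced mRNA libraries of mouse ESCs on BGISEQ-500, used Bowtie2 to map reads to mm10 and RSEM to count them, and deposited for each gene the estimated count, which is not normalized, and the FPKM value, which is normalized for length and depth. In the submitters' processing notes the names are HISAT and GRCm38.p6 instead. Versions are not given in the sources used here. The count columns of the D7 libraries are headed as averages but were used as single libraries. Of the genes, 19340 matched the reference by number and 26 date-like symbols were restored.

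Log2 ratios used FPKM plus 0.5. Intervals of read ratios were exact binomial at 95%. Rounded estimated counts were tested with edgeR 4.0.16 (R 4.3.3, TMM, quasi-likelihood, Benjamini-Hochberg) for genes of mean FPKM of at least 0.5, with DESeq2 1.42.0 and limma 3.58.1 as alternatives, and the code was tested on simulated data. The study says that its results came from repeated independent experiments for each condition, and the libraries are titled as replicates. No source says that these libraries are separate cultures, so p-values may measure technical spread. Libraries of the same number deviated together from their group means (r = 0.881, 0.756 and 0.889 over 12565 genes, against -0.0335 or below for other pairs of libraries), though such deviations must sum to 0 within a group of Con or OE libraries. The replicate number was therefore used as a block where it changed a call. The block lowered the common biological coefficient of variation from 0.283 to 0.0804 in the fit over pairs 1 and 2. Alternatives were other pseudocounts, filters and scalings, DESeq2, limma and leaving out each library.

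Named genes were *Dppa3*, the 10 largest differences each way without clone names, up to 5 members of 2-fold each way per list, imprinted genes of 1.5-fold, and for lists with none the 2 most abundant. The 28 lists and the members were chosen with earlier results of these data known. Some genes are in several lists, so the lists are not independent of each other.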

Additional observations from a re-analysis of the deposited data

Results flagged for a closer look

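For 34 of the named genes the OE effect differed between the D7 pair and pairs 1 and 2 in edgeR's test of the difference with the replicate block (27 above 0, 7 below). None passed without the block, the D7 pair has no replicate, and most of the genes were named for the D7 ratio that the test uses again, so these values describe the gap and do not support it. Values are differences in log2 fold change, D7 pair minus pairs 1 and 2.

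Above 0 were the matrix and actin genes *Col1a1* (2.1), *Acta2* (1.63), *Tgfbi* (1.61), *Col1a2* (1.56), *Timp2* (1.14), *Mmp14* (1.13), *Serpinh1* (0.99) and *Itga3* (0.749). The trophoblast genes and keratins *Gata2* (1.56), *Hand1* (1.12), *Krt18* (1) and *Krt8* (0.772) and the imprinted genes *Igf2* (1.53), *Cdkn1c* (1.41), *Phlda2* (1.22), *Peg3* (0.847), *Gnas* (0.747) and *Peg10* (0.658) were also above 0. So were *Rhox6* (1.72), *Rhox9* (1.43), *Gm4340* (1.73), *Fxyd2* (2.51) and *Zfp967* (5.21). The genes with 0 reads in Con-D7, *Hist1h2af* (9.37), *Hist1h2br* (8.95), *Hba-a1* (8.6) and *Ott* (8.09), have fitted values that depend on the prior count and are no measure of size.

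Below 0 were *Dppa3* (-3.46), *Zfp966* (-2.49), *Otx2* (-1.21) and *Lefty2* (-1.13). *Hist1h2ad* (-12.6), *Duxbl3* (-10) and *Hist1h2an* (-9.67) had 0 reads in OE-D7, and their fitted values are no measure of size either.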

How the results depend on the processing

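The D7 pair has 1 library per condition, so its ratios carry no replicate error. Behind the blocked test over pairs 1 and 2, and behind that of the difference, stands 1 residual degree of freedom. Counts of 2-fold genes depended on the low values: 163 higher genes became 259 at a pseudocount of 0.1 and 733 at 1.5-fold, and 49 lower genes became 29 at a pseudocount of 1, 22 at an FPKM of at least 3, 223 at 1.5-fold and 25 at 50 or more reads in a D7 library, a minimum added after the data were seen. Without asking that genes be measured in both pairs, 31.3% of the higher genes (51 of 163) and 26.5% of the lower genes (13 of 49) went the same way in both. Asking for measured genes, added after the data were seen, gave 46.8% of the higher genes, and asking for 1.5-fold in both pairs gave 7.36% and 0%. List medians moved at an FPKM of at least 3 to 0.70 for streak and mesoderm, 1.06 for fibrillar collagens, 0.38 for basement membrane, 0.97 for other collagens, 0.14 for blood and 0.46 for striated muscle genes, and without a filter to 0.14, 0.19 for the fibrillar collagens and 0.14 for blood genes. The other 159 of 168 alternative medians moved by less than the spread used as their limit. No D7 ratio of 1.5-fold or more among the named genes changed sign, while that of *Nanog*, 0.03, was -0.01 with TMM-scaled counts and -0.00 when centred on the median.

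Pairing by replicate number changed the calls over pairs 1 and 2 from 0 higher and 0 lower genes to 103 and 16 with the replicate block. DESeq2 gave 2 and 0, and with the block 32 and 2. With all 3 pairs and the replicate block, added after the data were seen, 0 were higher and 1 was lower. Leaving out 1 library gave from 1 to 86 higher and from 0 to 4 lower genes, the 86 without Con replicate 2. For the difference between the D7 pair and the others, the replicate block changed 0 and 0 to 129 above 0 and 70 below, DESeq2 gave 1 and 1, and with the block 15 and 6. Leaving out 1 library gave from 0 to 4 above 0 and from 0 to 6 below, the most without Con replicate 1 and Con replicate 2. The difference for *Hand1* ranged, without the block, from -0.162 without Con replicate 2, which is reversed, to 2.02 without OE replicate 2. The causes were not tested.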
